A study of Homo sapiens with 6 samples.

Results

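The dual-specificity MAP kinase phosphatases are 10 genes, DUSP1, DUSP2, DUSP4, DUSP5, DUSP6, DUSP7, DUSP8, DUSP9, DUSP10 and DUSP16, chosen by symbol, and 9 of them are among the 23858 genes of the deposited expression table. DUSP8 was not analysed here; the genes listed have at least 21 reads summed over the 6 libraries. RNA was sequenced from NB4, a human acute promyelocytic leukaemia cell line with the PML-RARA fusion. In the control group the labels name no treatment, and in the other group the cells were treated for 6 h with arsenic trioxide (ATO), an arsenical drug given in this leukaemia that brings about breakdown of the fusion protein; each group has 3 libraries. All libraries come from this 1 line. The dose, and whether the replicates were separate cultures, are not stated in the sources used here. The p-values therefore cover no more than the spread among these libraries, which may be technical.

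MAP kinases are switched on when a kinase above them adds phosphate to a threonine and a tyrosine in their activation loop. The phosphatases of this family remove both phosphates and so switch the kinases off, and several of their genes are themselves transcribed in response to MAP kinase signalling, which closes a negative feedback loop. By textbook knowledge they fall into 3 groups: nuclear enzymes whose genes are rapidly inducible (DUSP1, DUSP2, DUSP4 and DUSP5), cytoplasmic enzymes that prefer the kinase ERK (DUSP6, DUSP7 and DUSP9), and enzymes that prefer the stress kinases JNK and p38 (DUSP8, DUSP10 and DUSP16). In myeloid cells DUSP1 is known as a brake on p38 and JNK in stress and inflammation, and DUSP6 as a readout of ERK activity.

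Levels are given as RPKM, reads divided by exon length and by library depth. They can therefore be compared between genes, with a limit for DUSP6 that is given below. Library totals, worked out from the RPKM values and exon lengths, were 19361333 to 22609018 reads. At that depth 3 reads over 1 kb, taken as a floor, are worth 0.133 to 0.155 RPKM. This floor measures neither counting error at higher levels nor the spread between libraries. On the second principal component of 16803 tested genes, control replicate 1 (21.3) and ATO replicate 3 (23.0) stood apart from the other 4 libraries (-14.9 to -6.85). Of 6 promyelocyte markers 5 were listed, with summed RPKM of 998 to 1389 in control and 666.5 to 1006 in ATO libraries. None of the macrophage, megakaryocyte or fibroblast markers (0 of 10) was listed; 1 of 4 T cell markers (summed RPKM 3.23 to 3.76 in control, 3.04 to 4.22 in ATO), 1 of 4 erythroid markers (0.124 to 0.387 and 0.0853 to 0.376) and 2 of 4 epithelial markers (5.04 to 6.44 and 4.83 to 7.12) had a row. These lists do not cover all other cell types, and the part of other cells in the results below was not tested. In bulk RNA, fewer cells expressing a gene and less RNA of it per cell cannot be told apart.

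The stretch around the transcription start of some of the genes below is shown first, and its part in their changes was not tested. RefSeq promoters (GRCh38.p14, 250 bases before the start and 50 from it) were matched for 8 of the 10 members. DUSP4 and DUSP5, of which DUSP5 rose, had no match. The 4 printed promoters belong to a member that rose (DUSP1) and to the 3 that fell (DUSP2, DUSP6 and DUSP7). They lie on the minus strand at chr5:172771146-172771445 (DUSP1), chr2:96145391-96145690 (DUSP2), chr12:89352452-89352751 (DUSP6) and chr3:52056522-52056821 (DUSP7). Capitals mark matches to the motifs listed in the next paragraph, other than the TATA and GC boxes.
DUSP1: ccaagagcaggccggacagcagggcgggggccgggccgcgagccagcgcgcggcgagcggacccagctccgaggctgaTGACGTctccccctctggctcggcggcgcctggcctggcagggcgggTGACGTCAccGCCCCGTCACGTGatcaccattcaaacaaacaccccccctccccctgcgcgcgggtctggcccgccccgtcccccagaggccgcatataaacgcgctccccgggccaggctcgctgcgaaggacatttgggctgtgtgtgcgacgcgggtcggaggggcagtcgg
DUSP2: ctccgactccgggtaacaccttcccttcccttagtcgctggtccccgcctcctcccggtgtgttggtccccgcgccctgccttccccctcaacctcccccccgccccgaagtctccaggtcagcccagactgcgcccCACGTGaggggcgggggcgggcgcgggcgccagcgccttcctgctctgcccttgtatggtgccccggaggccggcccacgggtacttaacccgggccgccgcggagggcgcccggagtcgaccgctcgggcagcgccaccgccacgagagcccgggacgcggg
DUSP6: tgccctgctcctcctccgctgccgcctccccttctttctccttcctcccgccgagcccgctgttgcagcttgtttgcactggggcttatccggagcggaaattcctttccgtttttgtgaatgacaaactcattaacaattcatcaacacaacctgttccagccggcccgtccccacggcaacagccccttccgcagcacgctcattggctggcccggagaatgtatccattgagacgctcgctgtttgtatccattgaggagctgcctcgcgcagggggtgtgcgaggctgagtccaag
DUSP7: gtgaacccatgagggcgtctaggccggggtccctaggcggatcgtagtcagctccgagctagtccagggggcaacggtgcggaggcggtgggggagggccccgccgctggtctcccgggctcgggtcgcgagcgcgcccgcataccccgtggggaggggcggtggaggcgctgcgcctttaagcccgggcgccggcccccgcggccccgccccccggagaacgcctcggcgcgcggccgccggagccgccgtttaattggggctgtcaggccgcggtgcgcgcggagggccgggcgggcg

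Motifs were searched on both strands, counting the start base as 0: the cAMP response element (CRE) TGACGTCA and its first part TGACGT, AP-1 TGANTCA, the antioxidant response core TGACNNNGC, the ATF4 composite TGATGNAA, the ETS core CCGGAAG, the E-box CACGTG, the GC box GGGCGG and the CArG box of serum response factor. The TATA box TATAAA was searched on the sense strand alone. In the DUSP1 promoter the full CRE lay at -125 to -118, a separate TGACGT at -172 to -167, an antioxidant response core on the opposite strand at -115 to -107, overlapping an E-box at -108 to -103, and a TATA box at -30 to -25. Among 35116 promoters of the same length, 1.85% hold the full CRE, 7.98% TGACGT, 13.3% the antioxidant response core, 7.26% the E-box and 7.33% the TATA box. Other members hold some of these too: the promoter of DUSP8, whose expression was not analysed here, has 2 full CREs, at -118 to -111 and -74 to -67, and 1 of the DUSP10 promoters, a gene that was not called, has an antioxidant response core at -8 to 0. DUSP2 held an E-box at -113 to -108. The GC box, found in 45.0% of promoters, occurred 4 times in DUSP1 and 3 times each in DUSP2 and DUSP7. DUSP9, DUSP10 and DUSP16, none of them called, and DUSP8 held it too. No match to any of the motifs was found in the 300 bases of DUSP6. This window was 58.3% G and C, against 75.0% in DUSP2, 78.0% in DUSP7, 73.3% in DUSP1 and a median of 58.7% over all promoters. It lies wholly inside the annotated DUSP6 gene, which on the minus strand begins at 89353271. The stretch before that annotated start was not searched. AP-1 (7.71% of promoters), ATF4 composite (3.62%), ETS (10.3%) and CArG (1.29%) letters were absent from the promoters of all 8 matched members, the 4 printed windows included. The motifs were chosen with the expression results known, and a match is no more than a match of letters.

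After 6 h of arsenic trioxide the family split. DUSP1 and DUSP5, the nuclear phosphatases with the lowest mean control levels of their group, rose 3.16-fold and 3.76-fold. DUSP4, whose control libraries overlapped those of DUSP1, was not called. The 3 members with the highest control levels, DUSP7, DUSP6 and DUSP2, fell to levels 1.95, 1.96 and 1.96 times lower. Among the 8 members tested, 2 rose, 3 fell and 3 were not called (limma-trend on log2 of RPKM + 1, Benjamini-Hochberg adjusted p under 0.05 over all tested genes). Of all 16803 tested genes 25.4% were called, 12.0% higher and 13.4% lower. The 2 groups were fully separated in 6 of the 8 tested members, against 44.6% of all tested genes. In 3 members every ATO library was above every control, against 21.9% of all tested genes, and in 3 every ATO library was below, against 22.6%. The median log2 fold change was 0.22 over the 8 members and -0.0033 over all tested genes, with both ends of the family far from its median. DUSP9 had a mean under 1 RPKM over the 6 libraries and was therefore not tested.

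**Figure D1:**
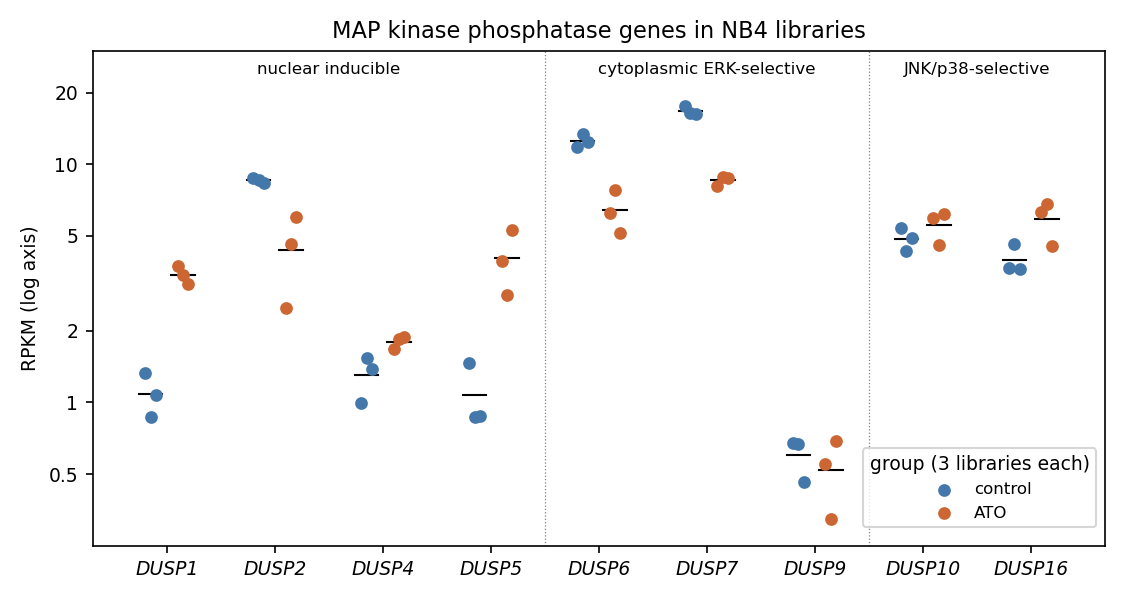
RPKM (log axis) of the 9 listed phosphatase genes in each library, ordered by role; points are single libraries of the control and ATO groups and black bars are group means. The ATO points lie above all control points for DUSP1, DUSP4 and DUSP5 and below them for DUSP2, DUSP6 and DUSP7, and the groups overlap for DUSP9, DUSP10 and DUSP16.

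Within the nuclear group, DUSP1 (ENSG00000120129, chromosome 5, 172768090 to 172771195, minus strand, GRCh38) encodes MKP-1, an immediate early gene product that acts on p38, JNK and ERK. Its level was 1.32, 0.870 and 1.07 RPKM in control replicates 1, 2 and 3, from 54, 34 and 49 reads, and 3.75, 3.41 and 3.16 RPKM in ATO replicates 1, 2 and 3, from 169, 146 and 140 reads. All 3 treated libraries were thus above all 3 controls, and the treated values lay close together. The means were 1.09 ± 0.228 and 3.44 ± 0.30 RPKM (SD, n = 3 each), and limma-trend gave a log2 fold change of 1.09 ± 0.14 SE (adjusted p = 0.00268).

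DUSP5 (ENSG00000138166, chromosome 10, 110497838 to 110511544, plus strand) encodes an ERK-selective nuclear phosphatase. It was at 1.46, 0.869 and 0.88 RPKM in control replicates 1 to 3 and at 3.94, 2.82 and 5.31 RPKM in ATO replicates 1 to 3. The highest values of each group came from control replicate 1 and ATO replicate 3, the libraries set apart on the second component. The means were 1.07 ± 0.337 and 4.02 ± 1.25 RPKM, the largest log2 fold change of the 8 tested members at 1.26 ± 0.22 SE (adjusted p = 0.0076). Without those libraries it was 1.21 (adjusted p = 0.0236), and that of DUSP1 was 1.22 (adjusted p = 0.0164).

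In the same group DUSP2 (ENSG00000158050, chromosome 2, 96143166 to 96145440, minus strand), which encodes the nuclear phosphatase PAC-1 of blood cells, moved the other way. The controls were tightly grouped at 8.79, 8.56 and 8.38 RPKM, whereas ATO replicates 1, 2 and 3 were spread over 2.48, 4.62 and 6.01 RPKM. The SD was 0.205 RPKM around a mean of 8.57 in controls and 1.77 around 4.37 after ATO. Its log2 fold change was -0.89 ± 0.24 SE (adjusted p = 0.0344). Although the groups did not overlap, adjusted p rose to 0.0867, 0.0859 or 0.0809 when control replicate 1, 2 or 3 was left out and to 0.0683 when ATO replicate 2 was, which ended the call. The authors' deposited table lists DUSP2 with a log2 fold change of -1.0 and an adjusted p of 9.69e-05.

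DUSP4 (ENSG00000120875, chromosome 8, 29333064 to 29350668, minus strand) encodes MKP-2, a nuclear relative of DUSP1. It was at 0.996, 1.53 and 1.38 RPKM in controls and at 1.68, 1.84 and 1.88 RPKM in ATO libraries. The treated libraries were all above the controls, by a narrow margin over control replicate 2. The log2 fold change of 0.29 ± 0.14 SE was not called (adjusted p = 0.181, 95% interval -0.05 to 0.62). On whole reads recovered from the RPKM values, limma-voom gave 0.48 (adjusted p = 0.048), in a fit that called 31.2% of all genes.

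Both tested members of the cytoplasmic ERK-selective group fell. DUSP7 (ENSG00000164086, chromosome 3, 52048919 to 52056550, minus strand), which encodes the ERK phosphatase MKP-X, had the highest RPKM of the listed members in all 6 libraries. Control replicates 1, 2 and 3 had 17.6, 16.4 and 16.3 RPKM, and ATO replicates 1, 2 and 3 had 8.11, 8.88 and 8.80 RPKM. The gap between the groups was many times the spread within either of them. From 16.8 ± 0.69 to 8.60 ± 0.422 RPKM, the log2 fold change was -0.89 ± 0.07 SE, with the smallest p of the 8 tested members (adjusted p = 0.000657).

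DUSP6 (ENSG00000139318, chromosome 12, 89347232 to 89353271, minus strand) encodes MKP-3, which binds and inactivates ERK and whose gene is induced by ERK signalling. It fell from 11.8, 13.5 and 12.4 RPKM in controls to 6.27, 7.83 and 5.14 RPKM in ATO replicates 1, 2 and 3. No treated library reached the lowest control. The log2 fold change was -0.89 ± 0.14 SE (adjusted p = 0.00551), and -0.80 without the libraries set apart on the second component (adjusted p = 0.0243). Of its 4632 exonic bases, 1875 are shared with an antisense gene (ENSG00000274021), the kit named in the labels' protocols is not, as usually sold, a strand-marking kit, and how reads of a shared stretch were counted is not stated in the sources used here. That antisense gene had 2, 7 and 12 reads in controls and 3, 3 and 1 in ATO libraries, against 523 to 1299 reads for DUSP6. Had reads of the shared stretch been left out of the count, the RPKM of DUSP6 would be too low. Its level against DUSP7 and other genes is therefore uncertain.

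DUSP9 (ENSG00000130829, chromosome X, 153642492 to 153651326, plus strand), encoding the ERK phosphatase MKP-4, was the lowest listed member in both groups. Its RPKM was 0.678, 0.67 and 0.462 in controls and 0.549, 0.323 and 0.689 after ATO, from 19 to 42 reads a library. The groups overlapped. A fit without the filter on low values gave a log2 fold change of -0.08 (adjusted p = 0.669), and DUSP9 has an adjusted p of 0.758 in the authors' deposited table.

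Neither listed member of the JNK and p38-selective group was called. DUSP16 (ENSG00000111266, chromosome 12, 12474210 to 12562383, minus strand) encodes MKP-7, a JNK phosphatase. It was at 3.67, 4.63 and 3.64 RPKM in controls and at 6.32, 6.82 and 4.56 RPKM in ATO replicates 1, 2 and 3. Only ATO replicate 3 kept the groups from separating, since it lay just below control replicate 2. The log2 fold change was 0.46 ± 0.16 SE (adjusted p = 0.076, 95% interval 0.08 to 0.84). DUSP16 was called in 2 of 14 alternative fits. These were without ATO replicate 3 (0.61, adjusted p = 0.0282) and with limma-voom on recovered reads (0.56, adjusted p = 0.0172). Without control replicate 1 and ATO replicate 3 together it was not called (0.57, adjusted p = 0.0611). The authors' deposited table lists 0.56 with an adjusted p of 0.00362 for DUSP16.

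DUSP10 (ENSG00000143507, chromosome 1, 221701424 to 221742176, minus strand) encodes MKP-5, which acts on p38 and JNK. With 5.39, 4.31 and 4.89 RPKM in controls and 5.93, 4.58 and 6.18 RPKM after ATO, its groups overlapped. The log2 fold change of 0.16 ± 0.13 SE was not called (adjusted p = 0.424), with a 95% interval of -0.16 to 0.48.

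**Figure D2:**
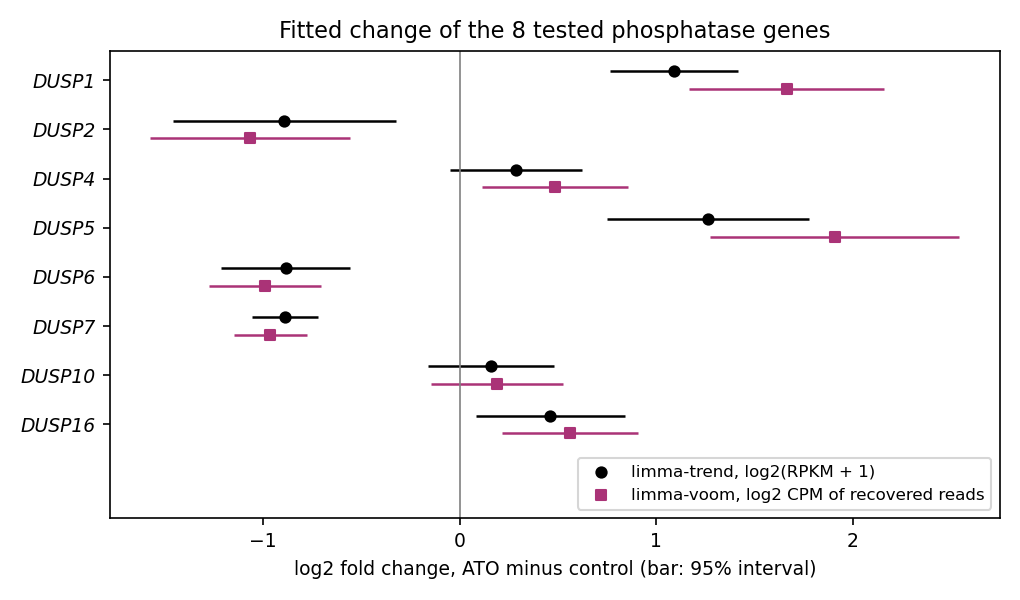
Fitted log2 fold change, ATO minus control, of the 8 tested phosphatase genes with 95% intervals, from limma-trend on log2 of RPKM + 1 (circles) and from limma-voom on recovered reads (squares). The added 1 RPKM shrinks the circles of low genes most: DUSP1 is at 1.09 and 1.66 and DUSP5 at 1.26 and 1.91, while DUSP7 is at -0.89 and -0.96.

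By limma-voom, which called 31.2% of all tested genes, 4 members were higher and 3 lower, against 2 and 3 by limma-trend. By the authors' deposited table, adjusted p was under 0.05 in 7 of the 9 listed members, DUSP9 and DUSP10 being the others, and in 25.3% of all genes with an adjusted p. These fits use the same libraries and are not independent of each other.

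**Figure D3:**
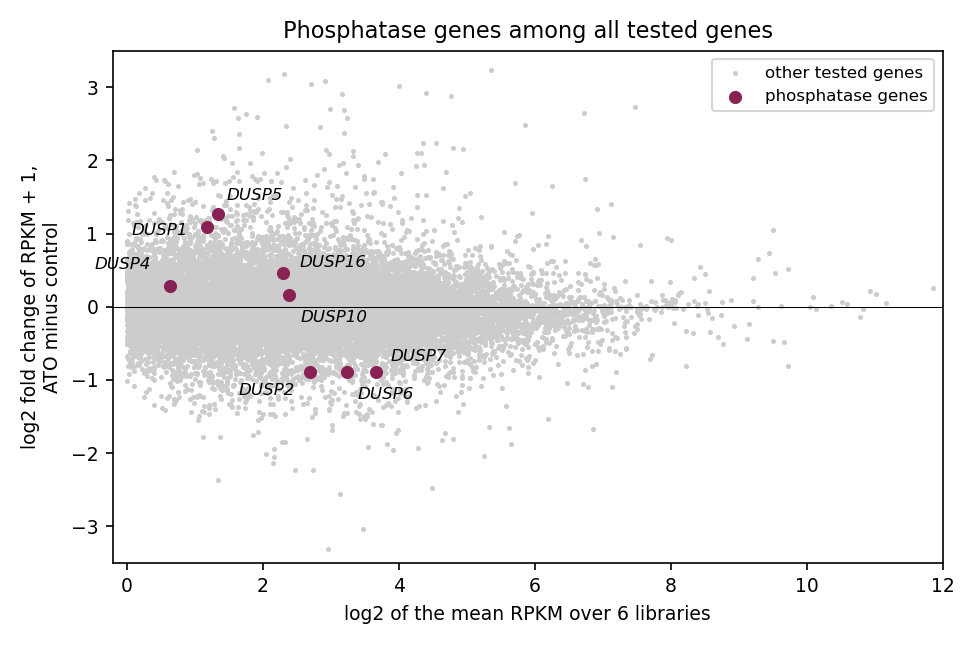
Log2 fold change of RPKM + 1, ATO minus control, against log2 of the mean RPKM for all tested genes (grey) and the 8 tested phosphatase genes (purple); 3 genes lie beyond the axis limits of ±3.5. DUSP1 and DUSP5 lie on the upper side at low mean levels, and DUSP2, DUSP6 and DUSP7 lie together near -0.89 at higher mean levels.

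The levels of the 8 tested members lay closer together after ATO. In controls the 9 listed members ran from DUSP7 (16.8 RPKM) through DUSP6 (12.6), DUSP2 (8.57), DUSP10 (4.86), DUSP16 (3.98), DUSP4 (1.30), DUSP1 (1.09) and DUSP5 (1.07) to DUSP9 (0.603). Neighbours whose libraries overlapped were DUSP10 with DUSP16, DUSP4 with DUSP1, and DUSP1 with DUSP5. After ATO the order was DUSP7 (8.60), DUSP6 (6.41), DUSP16 (5.90), DUSP10 (5.56), DUSP2 (4.37), DUSP5 (4.02), DUSP1 (3.44), DUSP4 (1.80) and DUSP9 (0.52). Every neighbouring pair from DUSP6 down to DUSP1 then overlapped, so neighbours in that stretch are not separated by these libraries, although every DUSP6, DUSP16 and DUSP10 value lay above every DUSP1 value. Among the 8 tested members, the ratio of the highest to the lowest in a library was 17.6 to 18.9 in controls and 4.68 to 4.85 after ATO. With DUSP9, which was at few reads, the ratio was 24.5 to 35.4 in controls and 12.8 to 27.5 after ATO, and these ranges overlap. The place of DUSP6 in both orders, and with it these ratios, depends on how reads of its shared stretch were counted.

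Summed over the 9 listed genes, phosphatase RPKM was 51.7, 51.3 and 49.5 in control replicates 1 to 3 and 39.0, 41.1 and 41.7 in ATO replicates 1 to 3. The cytoplasmic ERK-selective genes made up 58.9% ± 0.697 of this sum in controls and 38.3% ± 3.18 after ATO (SD, n = 3 each). The share of the nuclear genes was 23.7% ± 0.635 and 33.5% ± 4.97, with ATO replicate 3 highest at 39.2%. For the JNK and p38-selective genes it was 17.4% ± 0.142 and 28.3% ± 2.86. Their own sum was 8.84 ± 0.276 and 11.5 ± 0.757 RPKM, within a family sum of 50.8 in controls and 40.6 after ATO. A share can rise because other parts of the sum fall. In absolute terms the nuclear sum was 12.0 ± 0.465 and 13.6 ± 2.39 RPKM, as the fall of DUSP2 offset the rises of DUSP1 and DUSP5 within it. No test was made on these sums, and they too depend on how reads of the shared stretch of DUSP6 were counted.

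**Figure D4:**
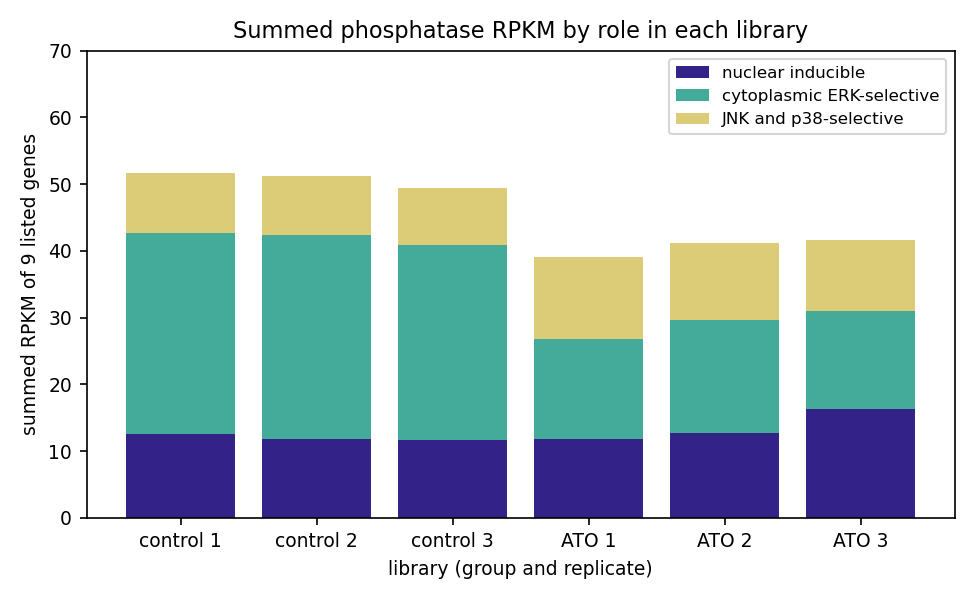
Summed RPKM of the 9 listed phosphatase genes in each of the 6 libraries, split by role. The cytoplasmic ERK-selective part is 29.2 to 30.5 RPKM in controls and 14.6 to 17.0 RPKM in ATO libraries, and the other parts are 8.53 to 12.6 RPKM in controls and 10.7 to 16.4 RPKM in ATO libraries.

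The members also differ in the length of their genes and in AU-rich heptamers of the 3′ untranslated region, a feature of many short-lived messenger RNAs. The spans ran from 2275 bases in DUSP2 and 3106 in DUSP1 to 40753 in DUSP10 and 88174 in DUSP16. In the longest coding transcript of each gene in GENCODE 29, the heptamer TATTTAT occurred 3 times in DUSP1, 4 times in DUSP4 and 1 time in DUSP2. It occurred 0 times in DUSP5, DUSP6, DUSP7, DUSP9, DUSP10 and DUSP16, and 2 times in DUSP8, whose expression was not analysed here. Of 9987 tested protein-coding genes 30.7% hold at least 1. Of the members with the heptamer, DUSP1 rose, DUSP2 fell and DUSP4 was not called, while DUSP5 rose without it. Whether the heptamer has a part in these changes was not tested.

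Other genes of the pathway were counted from 8 lists of 99 symbols, of which MAP3K20 and ZAK name the same gene. Of these symbols 68 were tested: 15 rose, 7 fell and 46 were not called, with a median log2 fold change of 0.04. Of all tested genes 12.0% rose and 13.4% fell. Of the MAP kinases themselves 2 of 10 tested rose and 0 fell. MAPK8, which encodes JNK1, rose from 9.72 ± 0.605 to 13.7 ± 0.252 RPKM (log2 fold change 0.45, adjusted p = 0.00572), and MAPK11, which encodes p38 beta, from 1.99 ± 0.159 to 3.55 ± 0.346 RPKM (0.61, adjusted p = 0.013, and 0.0545 without control replicate 1 and ATO replicate 3). Among the kinases that activate them, 2 of 6 tested MAP2 kinases rose and 1 fell. MAP2K5, the activator of ERK5, rose (0.44), as did MAP2K1, an activator of ERK (0.36, adjusted p = 0.0486), and MAP2K7, an activator of JNK, fell (-0.30, adjusted p = 0.0117, and 0.0586 without control replicate 1 and ATO replicate 3). MAP2K1 was no longer called when control replicate 2 (adjusted p = 0.137) or 3 (0.128) or ATO replicate 1 (0.124) or 3 (0.122) was left out, nor in 6 other settings (0.0503 to 0.0703).

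In the MAP3 kinase list 5 of 19 tested rose and 2 fell, where 12.0% of all tested genes rose and 13.4% fell. MAP3K1, which feeds JNK and ERK signalling, fell from 33.3 ± 1.45 to 20.6 ± 1.32 RPKM (-0.67, adjusted p = 0.00135). MAP3K2 (0.36) and MAP3K3 (0.47), both activators upstream of ERK5, rose, and so did BRAF, the RAF kinase of the ERK cascade (0.32, adjusted p = 0.0166). BRAF was no longer called when control replicate 3 was left out (adjusted p = 0.0529), nor without ATO replicate 1 (0.0587) or 2 (0.0503). Downstream of the MAP kinases, 2 of 9 tested MAP kinase-activated kinases fell and 0 rose: MAPKAPK3, a p38 target kinase, went from 55.2 ± 1.41 to 36.4 ± 1.29 RPKM (-0.59, adjusted p = 0.000897), and MAPKAPK5 had -0.33 (adjusted p = 0.0185), a call lost without control replicate 1 (0.0551) or 3 (0.0699) or ATO replicate 2 (0.0556).

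Among the ERK feedback and output genes, which like DUSP6 are known to be induced through ERK, 4 of 8 tested rose and 2 fell, with a median of 0.28, where 12.0% of all tested genes rose and 13.4% fell. SPRY1, a Sprouty inhibitor of receptor signalling to ERK, fell from 6.17 ± 0.33 to 2.24 ± 0.725 RPKM (-1.17, adjusted p = 0.0048), and CCND1, the cyclin D1 gene, from 14.8 ± 2.23 to 6.02 ± 0.785 RPKM (-1.17, adjusted p = 0.00181). SPRY4, another Sprouty gene, rose (0.37, adjusted p = 0.0262), as did ETV4, an ETS factor gene induced by ERK (0.31, adjusted p = 0.0305). The call of SPRY4 was lost without control replicate 2 (0.0792) or 3 (0.0785) and without ATO replicate 1 (0.0555), 2 (0.0785) or 3 (0.0629). That of ETV4 was lost without control replicate 1 (0.0842) or 3 (0.0974) and without ATO replicate 1 (0.0736), 2 (0.0873) or 3 (0.0632).

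Of the other phosphatases, 1 of 8 tested atypical dual-specificity genes rose and 0 fell, where 12.0% of all tested genes rose and 13.4% fell. The gene that rose was DUSP12, from 18.8 ± 0.723 to 26.3 ± 1.27 RPKM (0.47, adjusted p = 0.00323). PTPN7, a tyrosine phosphatase of ERK and p38 in blood cells and the sole tested member of its list, was at 41.1 ± 7.68 and 37.5 ± 0.283 RPKM (-0.11, adjusted p = 0.529). In the scaffold list 1 of 7 tested rose and 0 fell. KSR1, which holds RAF, MEK and ERK together, rose from 0.908 ± 0.104 to 3.06 ± 0.28 RPKM (1.09, adjusted p = 0.0020). Its RPKM rose 3.37-fold and that of DUSP1 3.16-fold, while the log2 fold change of RPKM + 1 was 1.09 for both.

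**Figure D5:**
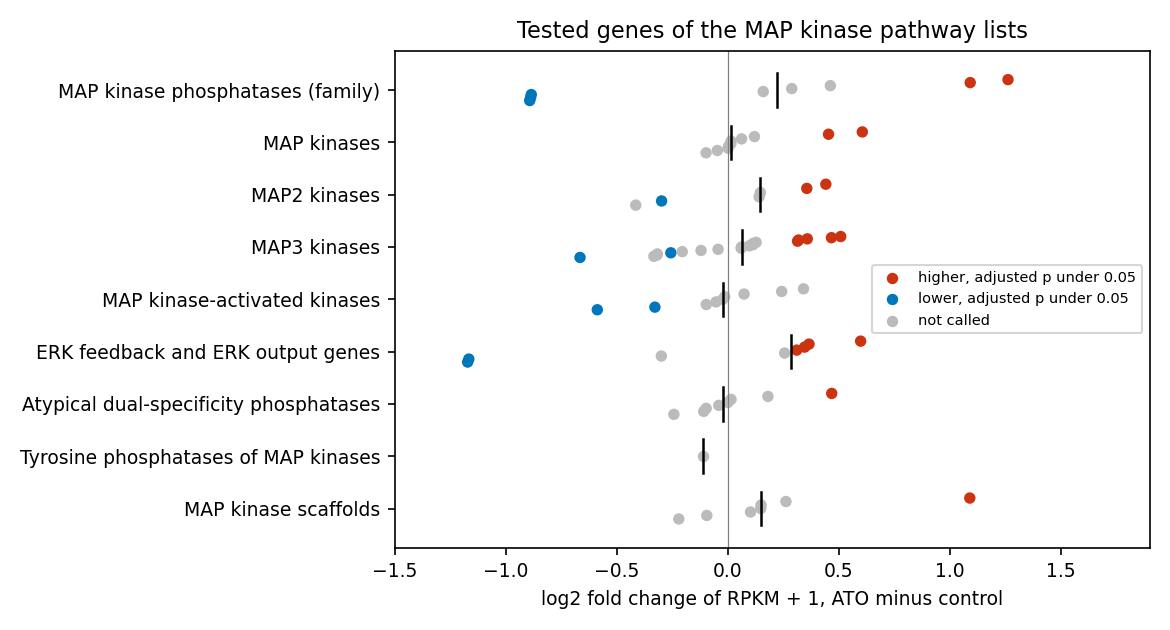
Log2 fold change of RPKM + 1, ATO minus control, of each tested gene in the phosphatase family and in the 8 pathway lists; red and blue points passed an adjusted p under 0.05, grey points did not, and black bars are medians. The list medians lie between -0.11 and 0.28, and the phosphatase genes span -0.89 to 1.26.

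Patterns were also compared across libraries. The tested genes most like DUSP7, the member with the highest mean, by Pearson's r of log2 of RPKM + 1 over the 6 libraries were WDR3 (0.999), DDI2 (0.999) and GRASP (0.999). Each fell in the same way, WDR3 from 17.3 to 8.79 RPKM, DDI2 from 17.1 to 10.3 RPKM and GRASP from 2.28 to 1.18 RPKM. With 6 libraries in 2 groups such values follow the difference between the groups, and they are given as a description.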

How the data were processed

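RNA-seq was made from NB4 RNA depleted of ribosomal RNA, in 3 control libraries and 3 from cells given arsenic trioxide (ATO) for 6 h, per the labels' protocols. HISAT2 2.1.0, HTSeq, DESeq2 and hg38 appear in the submitters' processing notes with no settings, and per the file headers duplicates had been removed. The authors deposited RPKM per gene and library, and their own comparison: a mean normalized signal, log2 fold change with its error, test score, p-value and adjusted p-value, quoted only as theirs, apart from the mean, which settled exon lengths of genes whose annotated length gave no whole reads. Library totals were not read from the labels but estimated as the values that turn RPKM times exon length into whole reads. Whole reads came out, within 0.01 reads in all 6 libraries, for 93.0% of genes from GENCODE 29 exon lengths alone and 97.9% with that mean. The rest were rounded.

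Log2 of RPKM + 1 was fitted with limma 3.58.1 (R 4.3.3, trend mode), treatment as the only term, over genes averaging 1 RPKM or more in the 6 libraries, and p-values were adjusted over all of them with the Benjamini-Hochberg method. Alternatives were pseudocounts of 0.1 and 5, no filter, median-ratio and upper quartile factors, limma-voom on recovered reads, a replicate block, each library left out, and, chosen after seeing the data, control replicate 1 and ATO replicate 3 left out together. Reads of libraries within a group differed far beyond counting noise (chi-square over degrees of freedom 5.11 to 12.2), so none is a copy of another. Genes named are all members, up to 4 called members of each pathway list by smallest p (all where under 4 were tested) and the 3 genes most like the highest member. The members and lists were chosen with earlier results of these data known. A further marker list, whose summed level differed between the groups, is not reported here, and its part in the results was not tested.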

Additional observations from a re-analysis of the deposited data

How the results depend on the processing

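DUSP1, DUSP5, DUSP6 and DUSP7 kept their direction and their call in all 14 alternatives (highest adjusted p 0.0164, 0.0291, 0.0243 and 0.0108), and DUSP10 was called in none of them (0.185 to 0.713). DUSP2 stayed lower in all 14 and was called in 9; with 1 library left out its log2 fold change ranged from -1.11 to -0.61, and in the fit with a replicate block it was -0.89 (adjusted p = 0.0532). Limma-voom on recovered reads called DUSP4 (0.48) and DUSP16 (0.56), which made 4 members higher, and 11 pathway list members lower against 7. Over the whole table it called 2504 genes higher and 2739 lower, against 2021 and 2252 in the main fit. DUSP16 ranged from 0.36 to 0.61 with 1 library left out. The size of each fold change moves with the pseudocount: DUSP5 was at 1.81 with 0.1 and 0.56 with 5, and DUSP1 at 1.59 and 0.47.

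Leaving out 1 library gave 1331 to 1525 higher and 1427 to 1908 lower genes over the whole table, against 2021 and 2252, and 7 to 11 higher and 5 to 9 lower pathway list members, against 15 and 7. Without control replicate 1 and ATO replicate 3 these were 1200, 1484, 8 and 4, and besides MAPK11 and MAP2K7 the named genes MAP2K1 (adjusted p = 0.0624), MAPKAPK5 (0.0785), SPRY4 (0.0778) and ETV4 (0.125) were no longer called. PTPN7 ranged from -0.21 to 0.032 with 1 library left out, changing sign without control replicate 1, and was at 0.028 without that pair. The replicate block gave 9 pathway list members higher and 5 lower, where over the whole table it gave 1460 higher and 1616 lower genes. It ended the calls of BRAF (adjusted p = 0.0561), MAPKAPK5 (0.053), SPRY4 (0.0767) and MAP2K1 (0.0532). Same-numbered libraries did not deviate together (correlations of -0.085, 0.148 and -0.083), so the numbers are not taken as pairs. A loss of power with fewer libraries is built into these fits. Depth limits DUSP9, with 19 to 42 reads a library.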

Other observations

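DUSP13, an atypical dual-specificity phosphatase gene below the filter on low values and named after its values were seen, had 0, 0 and 1 reads in control replicates 1, 2 and 3 and 22, 14 and 19 reads in ATO replicates 1, 2 and 3. The authors' deposited table lists for DUSP13 a log2 fold change of 5.58 with a standard error of 1.35 and an adjusted p of 0.000339. At these depths the controls are near the floor of 3 reads, and the gene was not tested here.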
